A study of Mus musculus with 4 samples.

Results

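The Bcl2 family decides, at the outer membrane of the mitochondrion, whether a cell survives or dies by apoptosis. The 10 genes described here were taken by name and are 10 of the 23906 gene symbols listed for each sample. They comprise the pro-survival genes *Bcl2*, *Bcl2l1* (which encodes BCL-XL) and *Mcl1*, the effector genes *Bax* and *Bak1*, and the BH3-only genes *Bcl2l11* (BIM), *Bbc3* (PUMA), *Pmaip1* (NOXA), *Bid* and *Bad*. BAX and BAK form the pores through which cytochrome c leaves the mitochondrion, pro-survival proteins hold them in check, and BH3-only proteins respond to stress by blocking the pro-survival proteins or by activating the effectors directly. MCL1 is known to be required for the survival of haematopoietic stem cells (HSCs), and forced expression of BCL2 is known to enlarge the HSC pool. Much of the control of the family is exerted on the proteins, by turnover, cleavage and phosphorylation, which mRNA levels do not show.

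RNA was sequenced from LSK-SLAM cells, the phenotypic HSC fraction (lineage-negative, Sca1+, cKit+, CD150+, CD48-), of *BRE-GFP* transgenic mice, in which a BMP responsive element drives GFP so that GFP marks cells with active BMP signalling when they are isolated. The 4 groups were GFP+ and GFP- cells of the embryonic day 14 fetal liver (FL), called fetal cells below, and GFP+ and GFP- cells of the adult bone marrow (BM), called adult cells. The mice of every group carried the transgene, on a C57BL/6 background, and the number of embryos or adults behind each sample is not given in the sources used here. Each group had 1 sample, so the differences between single samples below have no replicate check. Values are FPKM, in which a transcript's fragments are divided by its length and by the size of the library, which allows levels of different genes to be set side by side. Read counts were not used here, and the sampling error of each FPKM is unknown.

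The labels were followed throughout, although the order of the samples in the study's plots may differ from theirs, and a reversed order would turn the directions below. Genes chosen after their values were seen bear on this. The genes of fetal HSCs *Lin28b* (FPKM of 2.57, 5.96, 0.0443 and 0.0587 in fetal GFP+, fetal GFP-, adult GFP+ and adult GFP- cells), *Igf2bp3* (20.3, 15.8, 4.83 and 0.844) and *Hmga2* (9.94, 13.1, 1.98 and 0.890) were higher in both samples labelled FL. The BMP target gene *Id1* was higher in the samples labelled GFP+ (109 against 56.5 in the FL, 70.4 against 17.5 in the BM), whereas *Id3*, a further target, was so in the BM (119.8 against 46.6) and not in the FL (96.6 against 97.0). The labelled cell type was checked against marker genes. All 7 LSK-SLAM markers examined were detected in fetal GFP+, fetal GFP- and adult GFP- cells. In adult GFP+ cells *Procr*, the gene of the stem cell surface receptor EPCR, was listed at 0. Of the 7 markers, 6 were past 2-fold lower there than in adult GFP- cells. The remaining marker, the Sca1 gene *Ly6a*, was higher, with an FPKM of 286 in adult GFP+ and 146 in adult GFP- cells. *Cd48*, against which the cells were sorted, had an FPKM of 51.4 in fetal GFP+, 17.4 in fetal GFP-, 266.8 in adult GFP+ and 126 in adult GFP- cells. The summed FPKM of 8 neutrophil genes was 59051 in adult GFP+ and 14416 in adult GFP- cells against 354 and 154 in fetal GFP+ and GFP- cells, and that of 5 B cell genes was 3327 and 871 against 96.3 and 41.9. The BM samples, and adult GFP+ cells most, thus carried high levels of genes of mature blood cells. The part of these in the results below was not tested, and fewer cells of a type and less RNA per cell cannot be told apart in bulk RNA.

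**Figure D1:**
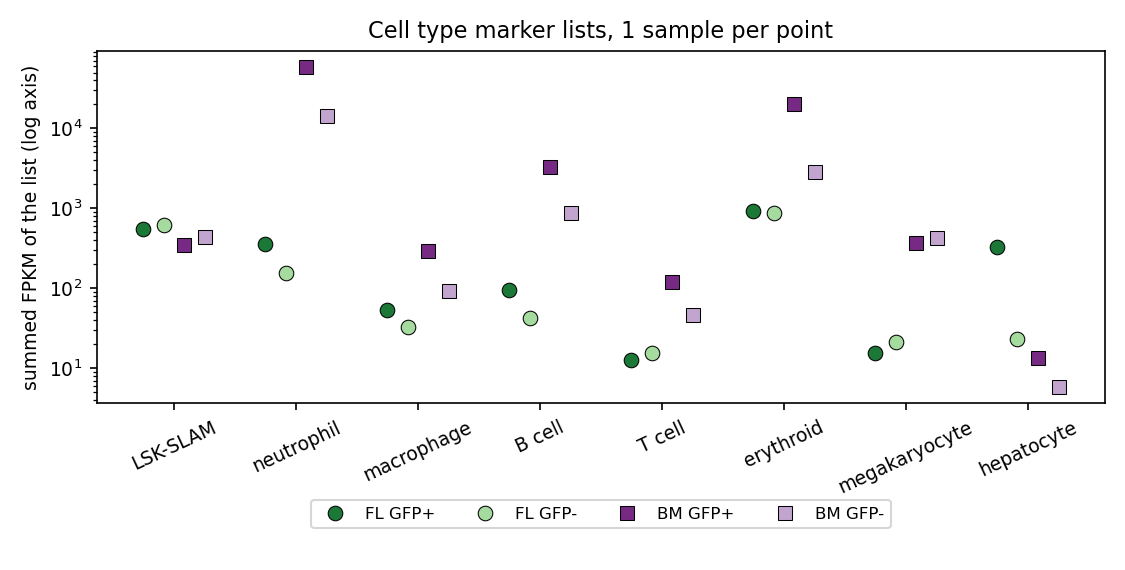
Summed FPKM of each cell type marker list (log axis) in the 4 samples, 1 point per sample. The neutrophil and erythroid lists reached 59051 and 20274 in adult GFP+ cells, above the other samples, while the hepatocyte list was highest in fetal GFP+ cells at 324.

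What the members share beyond their names is the BH3 segment, the short helix through which the death-promoting members bind the groove of the pro-survival ones. Its core was sought in the coding sequences of the reference transcripts as a leucine, 2 residues of any kind, a hydrophobic residue (alanine, isoleucine, methionine or valine), a small residue (glycine, alanine or serine), an aspartate, 1 residue of any kind and a second hydrophobic residue. This pattern was written with the family's BH3 segments known, so that its match to the members was fixed in advance and is no evidence of kinship. It occurred in 9 of the 9 members searched, against 615 of 21819 coding genes (2.82%). The 24 coding bases of the core are shown for these members because the segment is known from pro-survival, effector and BH3-only genes alike. The codons of the leucine, of the small residue and of the aspartate are in capitals.
Bcl2: CTCcgccgggctGGGGATgacttc
Bcl2l1: CTGagagaggcaGGCGATgagttt
Mcl1: CTGcggcgcgtgGGCGACggcgtg
Bax: CTCcggcgaattGGAGATgaactg
Bak1: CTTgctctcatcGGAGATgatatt
Bcl2l11: CTGcggcggatcGGAGACgagttc
Bbc3: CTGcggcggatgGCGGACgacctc
Bid: CTCgcccaaataGGCGATgagatg
Bad: CTCcgaaggatgAGCGATgagttt
The most alike were *Bcl2l11* and *Bbc3*, with 19 of 24 bases identical, and several pairs, among them *Bcl2* and *Bak1*, shared 11, the lowest number. The small residue is glycine in 7 of these genes, alanine in *Bbc3* and serine in *Bad*.

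In every sample *Bax* had the highest FPKM of the family, followed by *Bid* and *Bad*, and *Pmaip1* had the lowest, together with *Bcl2* in fetal GFP+ cells, where both were listed at 0. The FPKM of the 10 genes summed to 240.1 in fetal GFP+, 197 in fetal GFP-, 384 in adult GFP+ and 298 in adult GFP- cells. The pro-survival genes made up 18.1%, 21.3%, 21.7% and 17.5% of these sums in the same order. The effectors made up 48.3% and 45.9% in fetal GFP+ and GFP- cells against 35.0% and 35.1% in those of the BM. The BH3-only share was 33.5% and 32.8% in the FL against 43.3% and 47.4% in the BM, and *Bid* and *Bad* together accounted for most of it. The fetal samples were therefore weighted towards effector mRNA and the adult ones towards BH3-only mRNA.

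**Figure D2:**
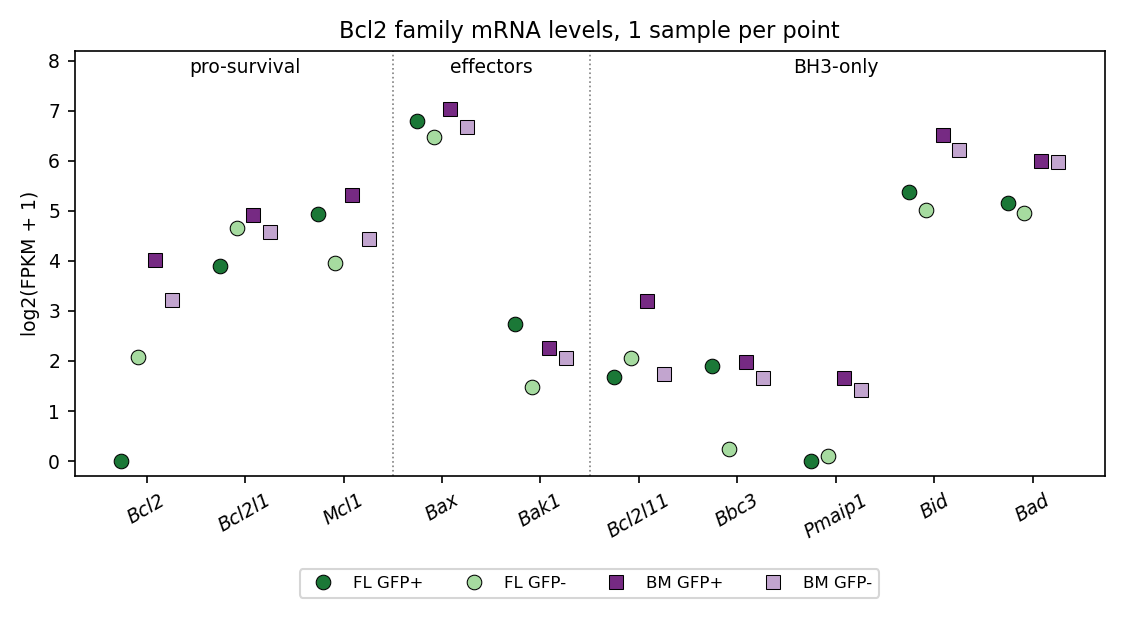
Level of each gene as log2(FPKM + 1) in the 4 samples, 1 point per sample, grouped by role. *Bax*, *Bid* and *Bad* lie at the top of the family, and *Bcl2* and *Pmaip1* reach 0 in fetal GFP+ cells.

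*Bcl2* (chromosome 1 of NCBIM37, 108434755 to 108610851, minus strand), the founding pro-survival gene, was listed at 0 in fetal GFP+ cells and had an FPKM of 3.24 in fetal GFP-, 15.2 in adult GFP+ and 8.30 in adult GFP- cells. Both BM samples were above both FL samples, and the order of the GFP fractions was opposite in the tissues. *Bcl2* was 2.56-fold lower in FL than in adult GFP- cells. A value of 0 at this level was common in fetal GFP+ cells. Of the 2951 other genes within 2-fold of the FPKM of *Bcl2* in fetal GFP- cells, 726 (24.6%) were listed at 0 in fetal GFP+ cells.

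*Bcl2l1* (chromosome 2, 152593052 to 152657464, minus strand), whose product BCL-XL protects erythroid cells and platelets in particular, had an FPKM of 13.9 in fetal GFP+, 24.2 in fetal GFP-, 29.1 in adult GFP+ and 23.0 in adult GFP- cells. fetal GFP+ cells stood lowest, 1.74-fold below fetal GFP- and 2.09-fold below adult GFP+ cells, and the other 3 samples lay close together. *Mcl1* (chromosome 3, 95462643 to 95467099, plus strand), which encodes a short-lived pro-survival protein, had an FPKM of 29.6 in fetal GFP+, 14.5 in fetal GFP-, 39.0 in adult GFP+ and 20.7 in adult GFP- cells. Here both GFP+ samples were above both GFP- samples. GFP+ cells exceeded GFP- cells 2.04-fold among fetal and 1.88-fold among adult cells. The leading pro-survival transcript differed accordingly between the fractions. *Mcl1* made up 68.0% and 46.9% of the pro-survival FPKM in FL and adult GFP+ cells, whereas *Bcl2l1* led in the GFP- cells with 57.7% and 44.3%.

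Among the effectors, *Bax* (chromosome 7, 52717065 to 52722268, minus strand) was the steadiest member. Its FPKM was 110.4 in fetal GFP+, 88.4 in fetal GFP-, 130.4 in adult GFP+ and 101 in adult GFP- cells, a range of 1.47-fold. *Bak1* (chromosome 17, 27156755 to 27165954, minus strand), whose product sits in the mitochondrial membrane before any death signal, was far less abundant, with 5.69, 1.79, 3.78 and 3.16 in the same order. fetal GFP+ cells were highest and fetal GFP- cells lowest, a 3.17-fold difference, with the BM samples between them.

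Of the BH3-only genes, *Bcl2l11* (chromosome 2, 127951774 to 127988283, plus strand) encodes BIM, the sensor of lost cytokine support in blood cells. Its FPKM was 2.21 in fetal GFP+, 3.17 in fetal GFP-, 8.23 in adult GFP+ and 2.35 in adult GFP- cells, so that adult GFP+ cells stood alone above the other 3 samples, 3.5-fold over adult GFP- cells. *Bbc3* (chromosome 7, 16894965 to 16903554, plus strand), a target of p53, had 2.73, 0.179, 2.92 and 2.15. fetal GFP- cells were 15.3-fold below fetal GFP+ cells and 12-fold below adult GFP- cells, while the other 3 samples were alike. *Pmaip1*, a further p53 target whose product engages MCL1, was listed at 0 in fetal GFP+ cells and had 0.0771 in fetal GFP-, 2.18 in adult GFP+ and 1.68 in adult GFP- cells. It was thus near the limit of detection in the FL, where 61.7% of the 1268 other genes within 2-fold of its level in GFP- cells were listed at 0 in GFP+ cells.

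*Bid* (chromosome 6, 120841948 to 120866871, minus strand), which couples death receptors to the mitochondrion once caspase-8 has cleaved its product, had an FPKM of 40.8 in fetal GFP+, 31.2 in fetal GFP-, 90.1 in adult GFP+ and 73.0 in adult GFP- cells. It was lower in the FL in both fractions, by 2.21-fold in GFP+ and 2.34-fold in GFP- cells. *Bad* (chromosome 19, 7016351 to 7026388, plus strand), which growth factor signalling holds inactive, had 34.7, 29.9, 62.9 and 61.9, and was 1.81-fold and 2.07-fold lower in the FL. The GFP fractions of a tissue differed by less than 1.5-fold for both genes. *Bcl2*, *Pmaip1*, *Bid* and *Bad* (4 of 10) had both FL values below both BM values, against 26.2% of all genes that reached an FPKM of 1, and 0 of 10 had both above, against 19.9%. *Mcl1*, *Bax*, *Bak1* and *Bbc3* (4 of 10) had both GFP+ values above both GFP- values, against 12.8%, and 0 of 10 had both below, against 15.2%. After scaling the samples to a common FPKM total, *Mcl1* kept this order, whereas the adult log2 ratios of *Bax*, *Bak1* and *Bbc3* turned to -0.09, -0.15 and -0.01. Exons of *Bid*, *Bad* and *Bak1* overlap those of *Bcl2l13*, *Gpr137* and *Ggnbp1* on the opposite strand. Exons of *Bcl2* likewise overlap those of *D630008O14Rik*, for which no level is given here. Without strand-specific counting, which is not given in the sources used here, reads of such partners cannot be told apart. In fetal GFP+, fetal GFP-, adult GFP+ and adult GFP- cells, *Bcl2l13* had an FPKM of 32.5, 10.04, 11.3 and 7.97. *Gpr137* had 21.9, 7.27, 7.38 and 12.1, and *Ggnbp1* had 0, 1.18, 0.923 and 0.599. The part of such reads in the values of *Bid*, *Bad* and *Bak1* was not tested.

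The GFP contrast asks whether BMP-activated and non-activated cells differ in their survival genes. The study required an FPKM more than 2 times that of the other fraction in both tissues, and here the same ratio was first applied to each tissue alone. By it, 5 of the 10 members were past 2-fold in the FL, against 44.6% of the 13609 genes that reached an FPKM of 1 in any sample (16.6% higher and 28.0% lower in GFP+ cells). *Mcl1*, *Bak1* and *Bbc3* were higher in GFP+ cells, and *Bcl2* and *Pmaip1* were lower. *Mcl1* was just past the threshold and no longer past it under any of 3 rescalings of the samples, with log2 ratios of 0.74 to 0.94. In the BM, *Bcl2l11* alone (1 of 10) was past 2-fold, higher in GFP+ cells, against 19.7% of such genes higher, 22.9% lower and 42.6% in either direction. The calls fell mainly on weakly expressed members. Where the higher FPKM of the pair was from 1 to under 10, 3 of 4 members among fetal and 1 of 4 among adult cells were past 2-fold, against 69.2% and 58.2% of all genes at that level. Where both values were at least 10, the counts were 1 of 5, *Mcl1*, and 0 of 5, against 14.9% and 16.3%.

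No member passed 2-fold in the same direction in both tissues (0 of 10), against 3.26% of all genes for higher and 8.98% for lower in GFP+ cells. On the log2(FPKM + 1) scale, which understates the changes of weakly expressed genes, the GFP+ over GFP- ratio was above 0 for 6 members in the FL and for 10 of 10 in the BM, with medians of 0.26 and 0.32 against 0.00 and 0.03 over all genes. The excess in the BM depended on scaling. After scaling the 4 samples to a common FPKM total, which moved the median of all genes to -0.28, 3 of the 10 ratios stayed above 0, although 9 were above the median of all genes, as they were before rescaling.

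**Figure D3:**
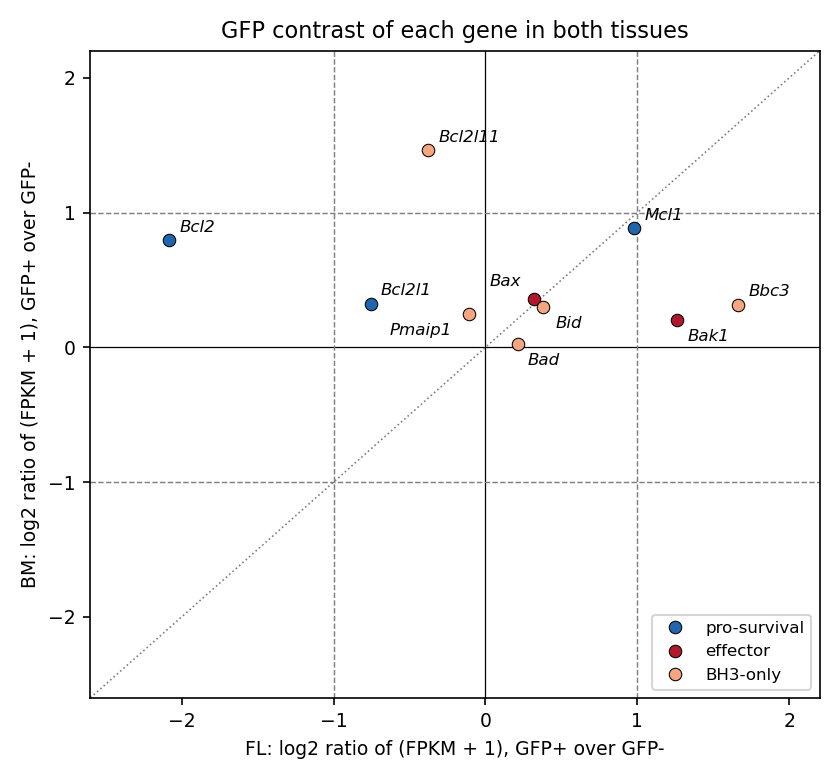
Log2 ratio of (FPKM + 1) in GFP+ over GFP- cells in the FL (horizontal axis) and the BM (vertical axis), 1 point per gene, with dashed lines at 2-fold and a dotted line of equality. *Mcl1* lies near the line of equality at 0.98 and 0.88, whereas *Bcl2* (-2.08 and 0.80) and *Bcl2l11* (-0.38 and 1.46) have opposite signs in the tissues.

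The GFP contrast is repeated across the tissues, and the tissue contrast across the fractions, which allowed limma to be fitted to all genes with both factors as terms. With 1 residual degree of freedom per gene, its error rests mainly on the spread that limma takes from other genes of like level (7.52 prior degrees of freedom), to which the gene's own difference of effect between tissues or fractions adds. It is not a spread between animals. For GFP, limma called 13 of 11707 genes at an adjusted p under 0.05 (0.111%). It called 0 of the 10 members, and 0 had an unadjusted p under 0.05. The largest member effects were 0.99 ± 0.80 for *Bbc3* (log2, SE, adjusted p = 0.970) and 0.93 ± 0.53 for *Mcl1* (adjusted p = 0.927, higher in GFP+ cells in 2 of 2 tissues). The estimate for *Bcl2* was -0.64 ± 1.02 (adjusted p = 0.990).

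The tissue contrast asks how fetal and adult cells differ. Organ and age changed together between these samples, so their effects cannot be told apart. In GFP+ cells 5 of the 10 members were past 2-fold lower in the FL, and none higher, against 32.1% of all genes lower, 24.1% higher and 56.2% in either direction. These were *Bcl2*, *Bcl2l1*, *Bcl2l11*, *Pmaip1* and *Bid*. In GFP- cells 5 of 10 were again past 2-fold lower in the FL, against 20.0% of all genes lower, 19.2% higher and 39.2% in either direction, and these were *Bcl2*, *Bbc3*, *Pmaip1*, *Bid* and *Bad*. *Bcl2*, *Pmaip1* and *Bid* were past 2-fold lower in both fractions (3 of 10, against 12.2% of all genes), and 0 of 10 were higher in both, against 7.86%. Among members with both values at least 10, *Bcl2l1* and *Bid* (2 of 5) in GFP+ and *Bid* and *Bad* (2 of 5) in GFP- cells were past 2-fold, against 30.4% and 13.8% of all genes at that level. Where the higher value was from 1 to under 10, 2 of 4 and 3 of 5 were, against 74.9% and 54.2%. The median log2 ratio of FL to BM over the members was -0.93 in GFP+ and -0.80 in GFP- cells, against -0.03 in each over all genes. The comparisons in GFP+ and GFP- cells share no sample, but each shares its samples with the GFP contrasts.

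**Figure D4:**
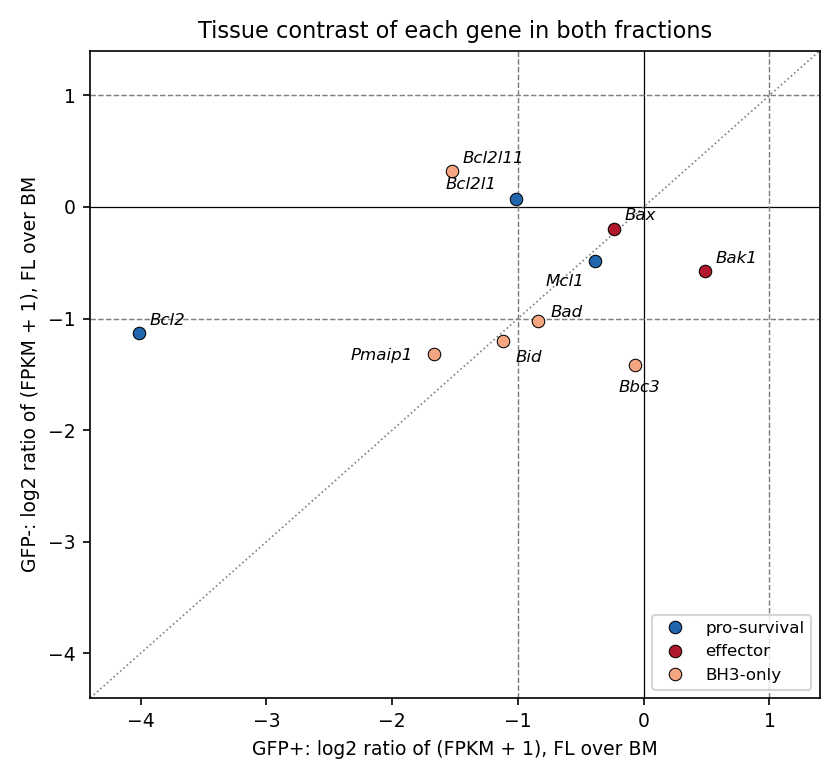
Log2 ratio of (FPKM + 1) in FL over BM for GFP+ (horizontal axis) and GFP- cells (vertical axis), 1 point per gene, with dashed lines at 2-fold and a dotted line of equality. *Bcl2*, *Pmaip1* and *Bid* lie below -1 on both axes, and *Bak1* and *Bcl2l11* change sign between the fractions.

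limma called 288 of 11707 genes for tissue (2.46%), of which 254 were lower in the FL. It called 0 of the 10 members, while 3 had an unadjusted p under 0.05. These were *Bid*, at -1.16 ± 0.40 (log2 FL minus BM, SE, adjusted p = 0.183), *Bcl2*, at -2.57 ± 1.02 (adjusted p = 0.243), and *Pmaip1*, at -1.49 ± 0.63 (adjusted p = 0.277). *Bad* followed at -0.93 ± 0.42 (adjusted p = 0.306). Each was lower in the FL in 2 of 2 fractions, and none passed the correction for multiple tests. *Bax* differed by -0.22 ± 0.33 (adjusted p = 0.800). After scaling to a common FPKM total, the members past 2-fold in GFP- cells were reduced from 5 to 2, *Bbc3* and *Pmaip1*, and the log2 ratio of *Bid* in GFP+ cells went from -1.12 to -0.50. The mature blood cell genes listed above took their highest values in the same BM samples, and their part in the tissue contrast was not tested.

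Ratios between members within a sample do not depend on how samples were scaled to each other. The ratios to *Bax* other than that of *Bcl2* were chosen after the values had been seen. The *Bid* to *Bax* ratio was 0.370 in fetal GFP+ and 0.353 in fetal GFP- cells against 0.691 in adult GFP+ and 0.720 in adult GFP- cells. For *Bad* the ratio to *Bax* was 0.315 and 0.338 in the FL against 0.482 and 0.610 in the BM. Both BH3-only genes were thus more abundant relative to *Bax* in either BM sample than in either FL sample, as were *Bcl2* and *Pmaip1* (4 of 9 members, against 21.1% of all genes). The *Bcl2* to *Bax* ratio was 0 and 0.0366 in fetal GFP+ and GFP- cells against 0.116 and 0.0818 in the BM. The *Mcl1* to *Bax* ratio instead separated the fractions, at 0.268 and 0.299 in FL and adult GFP+ cells against 0.164 and 0.204 in the GFP- cells. By this ratio 2 of 9 members, *Mcl1* and *Bbc3*, were higher in both GFP+ samples, against 5.89% of all genes, and *Bcl2l1* (1 of 9) was lower, against 23.1%.

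Further ratios within a sample were taken between opposing members and among the pro-survival genes. *Bcl2* to *Bcl2l11* was 0 in fetal GFP+, 1.02 in fetal GFP-, 1.84 in adult GFP+ and 3.53 in adult GFP- cells, and *Mcl1* to *Pmaip1* was 188 in fetal GFP-, 17.9 in adult GFP+ and 12.3 in adult GFP- cells, with *Pmaip1* listed at 0 in fetal GFP+ cells. *Mcl1* exceeded *Bcl2l1* in the GFP+ cells, with ratios of 2.13 for fetal and 1.34 for adult cells, and stood below it in the GFP- cells, at 0.600 and 0.899. *Mcl1* to *Bcl2* was 4.48, 2.57 and 2.49, and *Bcl2l1* to *Bcl2* was 7.47, 1.92 and 2.77, in fetal GFP-, adult GFP+ and adult GFP- cells. The summed pro-survival FPKM was 0.375, 0.465, 0.620 and 0.497 of that of the effectors in fetal GFP+, fetal GFP-, adult GFP+ and adult GFP- cells, and 0.541, 0.650, 0.501 and 0.369 of that of the BH3-only genes. The balance against the effectors was lowest in fetal GFP+ cells and that against the BH3-only genes in adult GFP- cells.

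**Figure D5:**
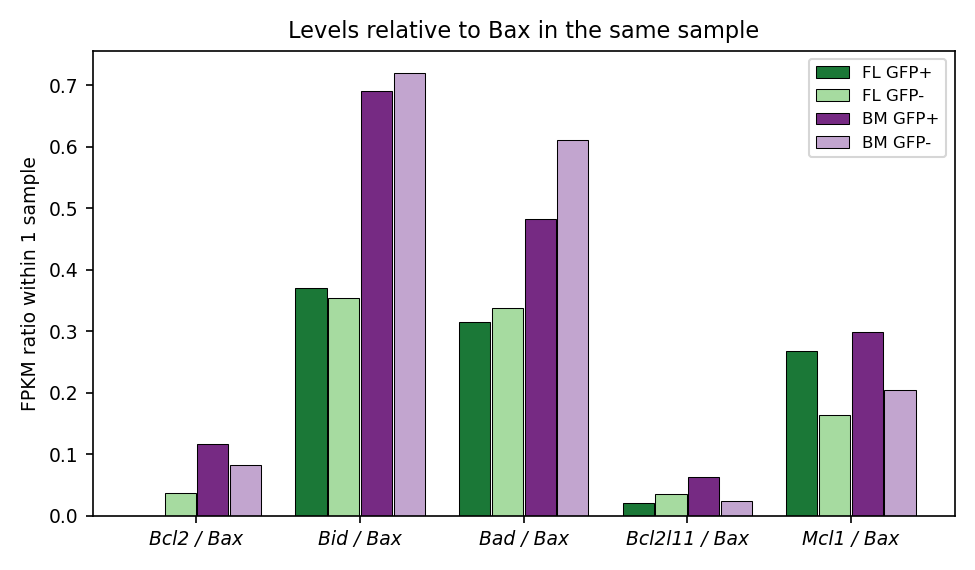
FPKM of 5 members divided by the FPKM of *Bax* in the same sample, 1 bar per sample. *Bid* and *Bad* are higher in both BM samples (0.482 to 0.720) than in both FL samples (0.315 to 0.370), *Mcl1* is higher in both GFP+ samples, and *Bcl2* has no bar in fetal GFP+ cells, where it is listed at 0.

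Of 16 further genes of the family or named with it, 12 reached an FPKM of 1 in any sample. The *Bcl2a1* genes are copies of the gene of A1, a pro-survival protein of granulocytes and activated lymphocytes. Of these near-identical copies, between which reads are divided with uncertainty, *Bcl2a1b* had an FPKM of 15.5 in adult GFP+ and 3.82 in adult GFP- cells, against 0 in fetal GFP+ and 1.81 in fetal GFP- cells. *Bcl2a1a*, *Bcl2a1c* and *Bcl2a1d* reached 1.95, 3.29 and 2.57 in adult GFP+ cells, 4.52-fold to 17.7-fold over adult GFP- cells, and were at 0 in fetal GFP+ cells. The 4 genes were therefore past 2-fold higher in adult GFP+ than in adult GFP- cells. The neutrophil, macrophage, B cell, T cell and erythroid lists were also highest in adult GFP+ cells. The part of mature cells in these values was not tested. *Bmf*, a BH3-only gene, was higher in GFP+ cells of both tissues, at 0.233 against 0.0138 among fetal and 2.81 against 0.213 among adult cells, although 3 of these values were under 1. In all, 6 of the 12 were past 2-fold higher and 0 lower in adult GFP+ cells, with a median log2 ratio of 0.73. The 6 were *Bmf*, *Bcl2l14* and the 4 near-identical *Bcl2a1* copies, which cannot be counted as separate observations. In fetal GFP+ cells 3 of the 12 were higher and 5 lower, with a median of -0.01. Over all genes 19.7% were higher and 22.9% lower in adult GFP+ cells, and 16.6% and 28.0% in fetal GFP+ cells.

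*Bok*, which encodes a further pore-forming relative of BAX, had an FPKM of 12.9 in fetal GFP+, 43.6 in fetal GFP-, 5.14 in adult GFP+ and 5.48 in adult GFP- cells. It was the member of this wider list that most clearly marked the FL, in both fractions. *Bcl2l14* had 0.0358, 14, 4.24 and 1.95 in the same order, and *Bcl2l13*, given above, was 3.24-fold higher in fetal GFP+ than in fetal GFP- cells. The mitophagy receptor genes *Bnip3l* (97.9, 48.2, 86.2 and 55.1) and *Bnip3* (38.1, 20.5, 15.4 and 21.9) were among the more abundant. *Bcl2l12* differed little (18.1, 25.4, 22.6 and 21.8), and *Bcl2l2*, which encodes BCL-W, stayed near or under 1 in each sample (0, 0.0195, 1.03 and 0.861).

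Downstream of the mitochondrion, 1 of 10 apoptosome and caspase genes was past 2-fold higher in adult GFP+ cells and 1 was lower. In fetal GFP+ cells 0 were higher and 2 lower. Over all genes 19.7% were higher and 22.9% lower in adult, and 16.6% and 28.0% in fetal GFP+ cells. *Apaf1*, the scaffold of the apoptosome, had an FPKM of 0.0542 in fetal GFP+ and 4.197 in fetal GFP- cells against 3.06 and 2.5 in the adult fractions. *Casp6* (10.3 and 30.5) and *Casp9* (11.9 and 4.98) were past 2-fold in opposite directions in the BM. Among 7 genes of the inhibitors of apoptosis and their antagonists, *Birc3* was lower in fetal GFP+ cells (1.69 against 12.6) and *Birc2* lower in adult GFP+ cells (4.36 against 17.04), and *Sept4* was higher in fetal GFP+ (14.6 against 6.75) and lower in adult GFP+ cells (3.28 against 7.64).

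Of 8 detected death receptor pathway genes, *Fas*, the receptor gene, was listed at 0 in both FL samples and had an FPKM of 12.3 in adult GFP+ and 4.89 in adult GFP- cells. *Cflar*, whose product blocks caspase-8, had 4.05 in fetal GFP+ and 10.8 in fetal GFP- cells, and *Tnfsf10* (1.20 and 5.62) and *Tradd* (26.4 and 60.1) were lower in adult GFP+ than in adult GFP- cells. *Fas* and *Bid*, which lie on the same route to the mitochondrion, were thus both higher in the BM, but others of that route differed. *Fadd* was lower in the BM, with 16.6 and 14.4 in fetal GFP+ and GFP- cells against 11.7 and 13.6 in the adult fractions. *Casp8*, with 32.2 and 58.3 against 62.9 and 54.8, was higher in the BM in GFP+ cells only. The outer membrane channel genes and their partners, 7 in all, had 1 gene past 2-fold between the FL fractions and 0 in the BM. The 1 gene was the co-chaperone gene *Bag3* (listed at 0 in GFP+ against 3.39 in GFP- cells). Over all genes 44.6% in the FL and 42.6% in the BM were past 2-fold in either direction. With both values at least 10 the shares were 14.9% and 16.3%. Of 5 detected genes of MCL1 protein turnover, *Btrc* was higher in fetal GFP+ cells (16.2 against 5.92). *Trim17* was listed at 0 in fetal GFP+ and 1.37 in fetal GFP- cells, with 0.177 and 0 in the adult fractions, where it was the gene past 2-fold. *Usp13* did not exceed 0.0456 in any sample.

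Of 12 genes of the p53 axis, which controls *Bbc3*, *Pmaip1* and *Bax*, 6 were past 2-fold lower and 1 higher in fetal GFP+ cells, and 4 were lower and 0 higher in adult GFP+ cells. Over all genes, 28.0% were lower and 16.6% higher in fetal GFP+ cells, and 22.9% and 19.7% in adult GFP+ cells. *Cdkn1a*, the p21 gene, had an FPKM of 0.230 in fetal GFP+ and 2.06 in fetal GFP- cells with 3.26 and 8.24 in the adult fractions. *Phlda3* was listed at 0 in both GFP+ samples, with 7.94 in fetal GFP- and 4.45 in adult GFP- cells, and *Aen* had 13.7 and 29.9 in the fetal and 11.5 and 28.7 in the adult fractions. These 3 genes were lower in GFP+ cells of both tissues. *Sesn2* (0 against 8.37) and *Ei24* (4.44 against 17.5) were lower in fetal GFP+ than in fetal GFP- cells. Other genes of the list were higher in GFP+ cells of both tissues, by less than 2-fold. *Mdm2* had 48.6 against 30.6 among fetal and 42.9 against 28.7 among adult cells. *Ccng1* had 26.8 against 17.9 and 43.5 against 28.7. *Bbc3* and *Bax* were also not lower in GFP+ cells of either tissue as deposited. Scaling to a common FPKM total turned the adult log2 ratios to -0.09 for *Bax* and -0.01 for *Bbc3*. *Pmaip1* was listed at 0 in fetal GFP+ against 0.0771 in fetal GFP- cells, and *Trp53* itself ranged from 272 to 367.

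The genes whose pattern over the 4 samples was most like that of *Mcl1* were *Pddc1*, *Abtb1* and *Hist2h2ac*, with log2(FPKM + 1) values centred on their own mean that departed from those of *Mcl1* by at most 0.063, 0.065 and 0.068 in any sample, among 8310 genes at an FPKM of at least 1 in all samples. For *Bcl2* they were *Dhrs7*, *Golph3* and *Bpgm*, at 0.14, 0.22 and 0.26 among 8311 genes. With 4 samples such likeness is a description of the profiles.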

How the data were processed

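RNA was isolated with the mirVana kit, SMARTer libraries were sequenced on a HiSeq2000, and the authors computed the deposited FPKM with Bowtie, TopHat and Cufflinks 2.2.1, corrected for fragment bias and multi-mapped reads (Cuffquant) and brought the samples to one scale (Cuffnorm, geometric). The study's methods name NCBI37/mm9 as the genome, whereas the submitters' processing notes name mm10. Gene positions and coding bases here are those of GENCODE vM1 on NCBIM37. Ratios of low FPKM between samples did not fall on steps sharp enough to recover read counts. The study's methods give the uniquely mapped reads of each sample, which do not tell the reads behind a gene's FPKM, so no counting error is given.

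Samples were grouped by their labels. The members and gene lists were chosen with earlier results of these data known. A call was an FPKM ratio over 2. Log2 ratios used FPKM + 1. limma 3.58.1 in R 4.3.3 was fitted to log2(FPKM + 1) of the 11707 genes that reached an FPKM of 1 in 2 or more samples, with tissue and GFP as terms, eBayes with trend and Benjamini-Hochberg adjustment, which leaves 1 residual degree of freedom per gene. The p-values thus rest mainly on the spread taken from other genes of like level. To this the gene's own difference of effect between tissues or fractions adds, which is not a spread between animals. The code, in Python 3.11.15, and the limma step were run on simulated data. The planted changes were free of noise for the ratio rule and large against the noise for limma. Such runs check the code and do not tell which changes could be found in these data.

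The named genes were the 10 members, other family genes that reached an FPKM of 1, up to 4 genes past 2-fold with the largest GFP ratio from each further list together with those past 2-fold in the same direction in both tissues, and the 3 genes most like *Bcl2* and *Mcl1*. *Trp53*, *Fadd*, *Casp8*, *Mdm2*, *Ccng1* and the overlapping genes were named outside this rule. A result that the rule names is not reported here. Alternatives were pseudocounts of 0.1 and 1, thresholds of 1.5-fold and 4-fold, filters, 3 rescalings, and limma without the trend or without the other factor.

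The marker lists not given in the report summed, in FL GFP+, FL GFP-, BM GFP+ and BM GFP- cells, to an FPKM of 53.8, 32.9, 291 and 91.6 for macrophages, 12.8, 15.3, 120.3 and 46.5 for T cells, 923, 874, 20274 and 2810.1 for erythroid cells, 15.5, 21.1, 369 and 423 for megakaryocytes, 324, 23.2, 13.3 and 5.76 for hepatocytes, and 549, 622, 349 and 438 for LSK-SLAM cells.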

Additional observations from a re-analysis of the deposited data

Results flagged for a closer look

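For 4 members the GFP+ over GFP- log2 ratio of (FPKM + 1) had opposite signs in the tissues. The BM ratio minus the FL ratio was 2.88 for *Bcl2*, 1.84 for *Bcl2l11*, 1.08 for *Bcl2l1* and 0.35 for *Pmaip1*, whose FPKM in the FL was at most 0.0771. For 3 members the FL over BM log2 ratio had opposite signs in the fractions. The GFP+ ratio minus the GFP- ratio was 1.06 for *Bak1*, -1.84 for *Bcl2l11* and -1.08 for *Bcl2l1*. With 1 sample per group none of these differences was tested. After scaling to a common FPKM total the BM ratios of *Bcl2l1* and *Pmaip1* became -0.11 and -0.05, so that their signs no longer differed between the tissues.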

How the results depend on the processing

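The members past 2-fold between FL fractions numbered 3 instead of 5 with ratios of FPKM + 1 and 3 at a 4-fold threshold. Between BM fractions 1 member became 3 at 1.5-fold and 0 at 4-fold. Between FL and BM the 5 members became 2 at 4-fold in GFP+ and 2 in GFP- cells, and 2 in GFP- cells after rescaling to the same FPKM total. A stricter or looser threshold changes the count by construction. limma called 13 genes for GFP, and 1 with a pseudocount of 0.1, 0 without the filter on low FPKM (982 at an unadjusted p under 0.05), 0 without the trend (685) and 4 without tissue in the fit. For tissue it called 288 genes, and 80, 0 (1216 unadjusted), 0 (1581) and 176 under the same alternatives. The cause was not tested. Under none of these was a member called (lowest adjusted p 0.208). Of 419 further values of single members under the alternatives, 388 kept their status, called or not called, while 22 lost a call and 9 gained one. A reversal could be counted only for a member called at first, and there were 0. Signs of uncalled ratios did change on rescaling. With a common FPKM total, *Mcl1* in FL over BM GFP+ cells went from -0.39 to 0.23, and *Bad* between the BM fractions from 0.02 to -0.43. *Mcl1* in the FL lost its 2-fold call under each rescaling and with FPKM + 1. No paired analysis of replicates was possible because each group had 1 sample. The limma fit still compares GFP within tissue and tissue within GFP fraction. Leaving out a sample leaves limma no residual degree of freedom. The reads behind each FPKM are unknown. Where the higher FPKM was from 1 to under 10, 69.2% of genes passed 2-fold in the FL.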
